A study of Mus musculus with 12 samples.

Results

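The genes examined were 7 that encode no histone, namely Mrs2, Acot13, Tdp2, Gpld1, Dcdc2a, Scgn and Cmah, which lie beside the large histone cluster of mouse chromosome 13. They lie in a stretch of 2.5 Mb on either side of the histone gene H4c4, which holds 68 other non-histone genes with a cluster of their own, and each was taken where the array annotation pairs a transcript cluster (a set of probes summarized to 1 value) with that gene alone. These 7 genes have 8 transcript clusters, since Mrs2 has 2, out of 19938 genes with a single-gene cluster and 35556 transcript clusters in all. They were selected on the measured values of the strain contrast described here and of single ICR arrays, so their differences between strains are given as a description, with no test.

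RNA from the hippocampus of 6 MSN and 6 ICR mice was hybridized to 1 array per mouse, to compare a mouse strain with a manic phenotype with the stock it came from. MSN (Madison) is an inbred line derived from ICR, with selection first for wheel running and later to maintain high maternal defense. It was then kept for generations without selection, and the study holds genetic drift likely. MSN mice move more and rest less. ICR (hsd:ICR) is the outbred ancestral stock, so its mice need not share a genotype, and it was not selected alongside MSN. All were adult males with no drug or other treatment named, separate animals of about the same age, and the tissue was macrodissected hippocampus, which holds every cell type of the region. In such bulk RNA, fewer cells of a type and less RNA per cell cannot be told apart.

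Histone genes of this cluster supply most of the histone proteins that a dividing cell needs when it copies its DNA, and they are packed among unrelated genes with roles of their own. The genes studied here belong to several pathways. Mrs2 is the channel through which magnesium enters the mitochondrial matrix, and Acot13 splits fatty acyl-CoA into free fatty acid and coenzyme A. Tdp2 removes topoisomerase II that has become trapped on the ends of broken DNA. Gpld1 is a phospholipase that cuts glycosylphosphatidylinositol (GPI) anchors and frees proteins from the cell surface. Dcdc2a is a doublecortin-domain protein that binds microtubules, Scgn (secretagogin) is an EF-hand calcium-binding protein, and Cmah makes the sialic acid Neu5Gc from Neu5Ac.

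Promoter sequences of 4 of the 7 genes (Scgn, Cmah, Gpld1 and Dcdc2a) were in the RefSeq table of GRCm38.p6, which spans 250 bases before to 50 bases after each start. For Dcdc2a and Cmah the mean levels lay in opposite directions between the strains. The same 2 ICR mice lay inside the MSN range in both, for Cmah only at its lower edge. For Dcdc2a 1 of the 2 was near its upper edge. The promoter of Dcdc2a and the more upstream of the pair listed for Cmah are therefore shown. They are written 5′ to 3′ with CpG dinucleotides in capitals, from chr13:25055754-25056053 and chr13:24327154-24327453, both on the plus strand.
Dcdc2a: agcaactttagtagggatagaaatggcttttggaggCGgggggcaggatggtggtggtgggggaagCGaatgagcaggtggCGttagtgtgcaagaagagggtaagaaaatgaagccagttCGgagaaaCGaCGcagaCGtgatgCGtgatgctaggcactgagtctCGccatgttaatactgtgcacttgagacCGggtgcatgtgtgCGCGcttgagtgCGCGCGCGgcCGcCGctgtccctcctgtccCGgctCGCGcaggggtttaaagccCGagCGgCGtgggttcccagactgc
Cmah: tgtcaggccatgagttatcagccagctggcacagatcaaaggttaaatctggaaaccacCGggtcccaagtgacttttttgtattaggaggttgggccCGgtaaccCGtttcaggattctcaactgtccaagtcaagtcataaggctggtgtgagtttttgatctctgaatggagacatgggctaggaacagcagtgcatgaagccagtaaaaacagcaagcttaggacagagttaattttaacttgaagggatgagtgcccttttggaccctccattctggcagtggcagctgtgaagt
The Dcdc2a window held 24 CpG dinucleotides, at the 80.8th percentile of the 32851 RefSeq promoters, and the Cmah window held 3, at the 27.3rd percentile. Neither window held the CCAAT box (letters CCAAT, in 37.4% of all promoters of this length), the GC box (letters GGGCGG, in 35.7%) or the TATA box (letters TATAAA, in 13.6%) on either strand. The Scgn promoter held 11 CpG dinucleotides and 1 GC box, the Gpld1 promoter held 5 CpG dinucleotides and 1 CCAAT box, and the downstream promoter listed for Cmah held 3 CpG dinucleotides and 1 CCAAT box.

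Array values are PLIER intensities on a linear scale. The median over all clusters was between 270 and 298 on every array, and pairs of arrays from the same strain correlated at 0.992 to 0.997, pairs from different strains at 0.992 to 0.996. Replicate 1 of ICR, which recurs below, correlated with the other ICR arrays at 0.994 to 0.996 and with the MSN arrays at 0.994 to 0.996. The tissue carried its markers, with 11 of 12 hippocampal principal neuron genes above the array median on all arrays and the exception Tdo2. Fold changes are MSN over ICR, as differences of mean log2(intensity + 16), with standard errors from the linear model over all clusters (limma). Across the 23410 clusters paired with a gene, 0.777% differed at an adjusted p under 0.05 and 12.7% at an unadjusted p under 0.05.

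Mrs2 was lower in MSN mice by both of its clusters. Cluster 10408346 had a lowest, median and highest intensity of 374, 410 and 448 in MSN mice, while ICR replicates 1 to 6 had 438, 815, 564, 578, 680 and 732. ICR replicate 1 therefore lay inside the MSN range and the other 5 ICR mice above it. The means were 409 ± 26.3 in MSN mice and 634 ± 135 in ICR mice (SD, n = 6 each). The log2 fold change was -0.59 (SE 0.115), or 0.664 times the ICR level. Cluster 10408348 had a lowest, median and highest intensity of 429, 458 and 476 in MSN mice, against 461, 801, 633, 658, 760 and 767 in ICR replicates 1 to 6. The same ICR mouse was at the MSN level, and the other 5 were again above every MSN mouse. The means were 456 ± 16.2 in MSN mice and 680 ± 126 in ICR mice. The log2 fold change was -0.54 (SE 0.104), or 0.688 times the ICR level. In the RefSeq table Mrs2 overlaps Gpld1, and whether the probes of one read RNA of the other was not tested.

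Acot13 and Tdp2, which neighbor each other in gene order, divided the ICR mice in the same way. Acot13 had a lowest, median and highest intensity of 591, 718 and 778 in MSN mice, against 643, 935, 864, 950, 1079 and 1024 in ICR replicates 1 to 6. Only ICR replicate 1 fell inside the MSN range. The log2 fold change of Acot13 was -0.35 (SE 0.105), with means of 707 ± 66.9 in MSN mice and 916 ± 153 in ICR mice. Tdp2 had a lowest, median and highest intensity of 549, 585 and 688 in MSN mice, against 583, 702, 772, 744, 763 and 773 in ICR replicates 1 to 6. Here too ICR replicate 1 was inside the MSN range and no other ICR mouse was, although MSN replicate 1 came within a small distance of ICR replicate 2. The log2 fold change of Tdp2 was -0.26 (SE 0.0702), with means of 598 ± 48.3 in MSN mice and 723 ± 73.6 in ICR mice.

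Gpld1 and Scgn differed less between the strains. Gpld1 had a lowest, median and highest intensity of 691, 728 and 845 in MSN mice, against 726, 817 and 916 in ICR mice, and 5 of 6 ICR mice lay inside the MSN range, with replicate 6 above it. The log2 fold change of Gpld1 was -0.13 (SE 0.0565), and -0.17 without MSN replicate 5. Scgn was dim, between 84.2 and 93.0 in MSN mice, against 81.5, 94.8, 94.0, 97.3, 118 and 105 in ICR replicates 1 to 6. Its ICR replicate 1 fell below the MSN range, while the other 5 lay above it, so no ICR mouse was inside. The log2 fold change of Scgn was -0.13 (SE 0.0610), and -0.08 without ICR replicate 5, its brightest mouse.

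Dcdc2a and Cmah divided the ICR mice in another way. Dcdc2a had a lowest, median and highest intensity of 197, 224 and 239 in MSN mice, against 219, 307, 237, 252, 282 and 304 in ICR replicates 1 to 6. Replicates 1 and 3 of ICR lay inside the MSN range, replicate 3 only just below its highest value of 239. Replicates 2, 4, 5 and 6 lay above it. The means were 223 ± 15.9 in MSN mice and 267 ± 36.4 in ICR mice, with -0.24 (SE 0.0775) as the log2 fold change. Cmah, the 1 gene of the 7 with a higher mean in MSN mice, had a lowest, median and highest intensity of 85.6, 89.95 and 97.5 in MSN mice, against 86.0, 83.7, 85.7, 80.3, 80.5 and 78.6 in ICR replicates 1 to 6. Again replicates 1 and 3 of ICR were inside the MSN range, but only just above its lowest value of 85.6. Replicates 2, 4, 5 and 6 were below it, by small amounts, so the division of the ICR mice is slight for Cmah. The log2 fold change of Cmah was 0.12 (SE 0.0362), or 1.09 times the ICR level, with means of 91.0 ± 4.30 in MSN mice and 82.5 ± 3.09 in ICR mice.

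**Figure D1:**
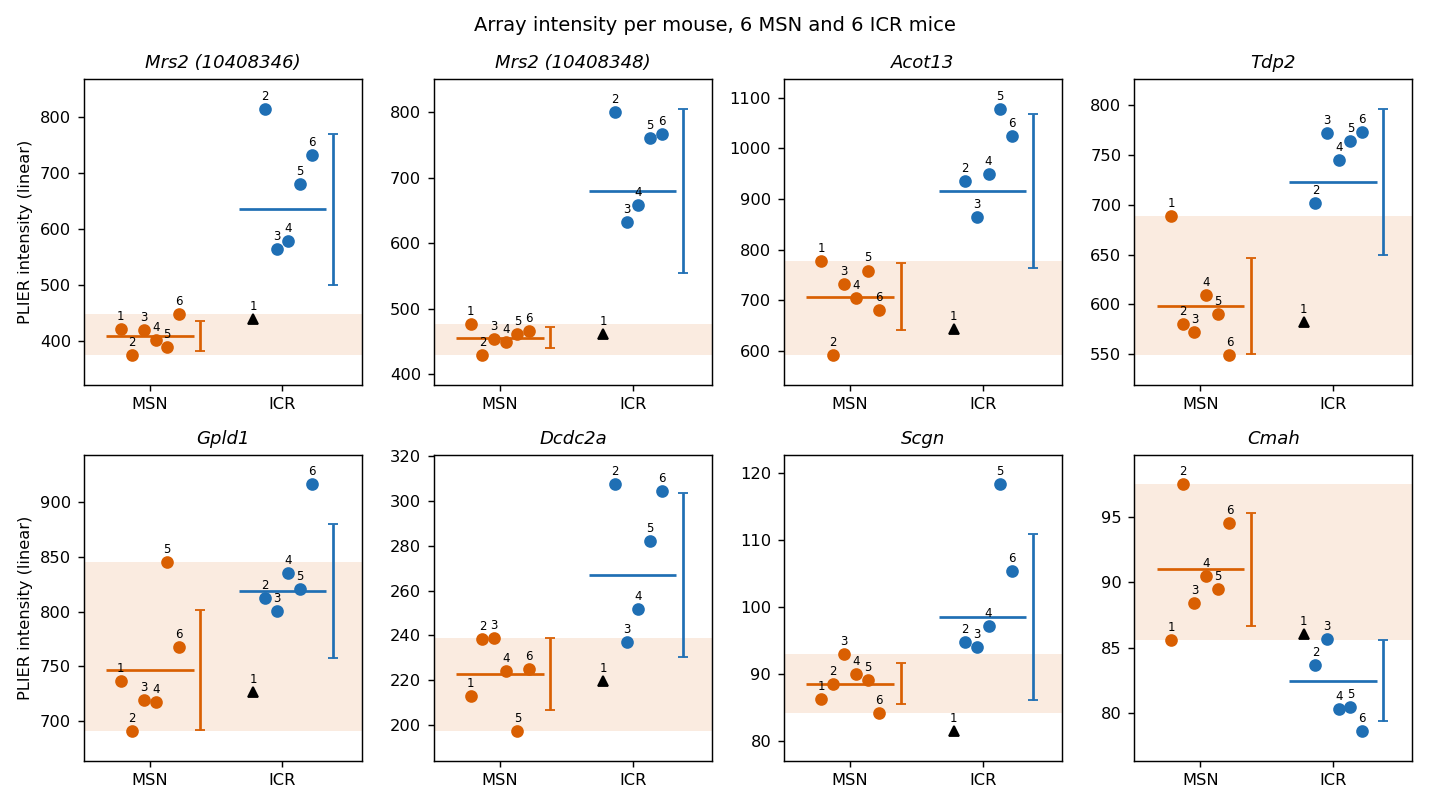
Array intensity (linear) of each transcript cluster in each mouse, with MSN mice left and ICR mice right, replicate numbers beside the points, lines at the mean, bars for the SD and a shaded band for the MSN range. ICR replicate 1 (black triangle) lies inside the MSN range in 7 of the 8 clusters and below it for Scgn. The y axes do not start at 0.

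The plot of intensity per mouse shows ICR mice at or across the MSN range in each of the 8 clusters, so the groups failed to overlap in 0 of 8, where 1.44% of all clusters had groups that did not overlap. Of the 48 ICR values of these clusters 13 fell inside the MSN range of their cluster, 27.1%, against 67.2% of the 140460 ICR values over all clusters with a gene. Replicate 1 of ICR accounted for 7 of the 13, replicate 3 for 3, replicates 2, 4 and 5 for 1 each and replicate 6 for 0. In 4 of 8 clusters (both of Mrs2, Acot13 and Tdp2) replicate 1 was the sole ICR mouse inside the MSN range with the other 5 beyond it on 1 side. Over all clusters with a gene that held for 0.478%. In the whole table, sole overlap on these terms was found in 112 clusters for ICR replicate 1 and in 188, 176, 90, 88 and 80 clusters for ICR replicates 2 to 6. Since the genes were chosen knowing which ICR mice matched MSN, these shares are descriptions.

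The spread within ICR mice exceeded that within MSN mice in 7 of the 8 clusters when all 12 arrays were used. On the log2 scale the ICR SD was 5.75 and 3.49 times the MSN SD for the Mrs2 clusters 10408348 and 10408346 and 3.67 times for Scgn. These ratios stood at the 99.7th, 98.5th and 98.7th percentile of all clusters. For Dcdc2a and Acot13 the ratios were 1.93 and 1.87, for Tdp2 1.41, for Gpld1 1.05 and for Cmah 0.785. The count rests on ICR replicate 1, and without it the ICR SD was above the MSN SD in 4 of the 8 clusters, those of Mrs2, Scgn and Dcdc2a. The ratios were then 2.93 and 2.47 for the Mrs2 clusters 10408348 and 10408346, 2.87 for Scgn, 1.61 for Dcdc2a, 0.873 for Acot13, 0.520 for Tdp2, 0.751 for Gpld1 and 0.728 for Cmah.

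Leaving out ICR replicate 1 moved each of the 8 log2 fold changes away from 0. Without it the log2 fold change was -0.69 (SE 0.0860) and -0.64 (SE 0.0597) for the Mrs2 clusters 10408346 and 10408348, -0.45 (SE 0.0719) for Acot13 and -0.32 (SE 0.0534) for Tdp2. These correspond to 0.621, 0.640, 0.732 and 0.800 times the ICR level. With all 12 arrays 2 of 8 clusters, both of Mrs2, passed an adjusted p under 0.05, where 0.777% of all clusters did, and 7 of 8 passed an unadjusted p under 0.05, where 12.7% did. Of the 8, 0 passed the adjusted p without any 1 of MSN replicates 2 to 5 or ICR replicates 5 and 6, and 1 passed without MSN replicate 1 or ICR replicate 4. Without ICR replicate 1, 4 of 8 passed (Mrs2 by both clusters, Acot13 and Tdp2), where 0.547% of all clusters did. The selection used this contrast, so nothing is read from these counts. The median log2 fold change of the 8 clusters was -0.25, against -0.01 over all clusters with a gene.

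**Figure D2:**
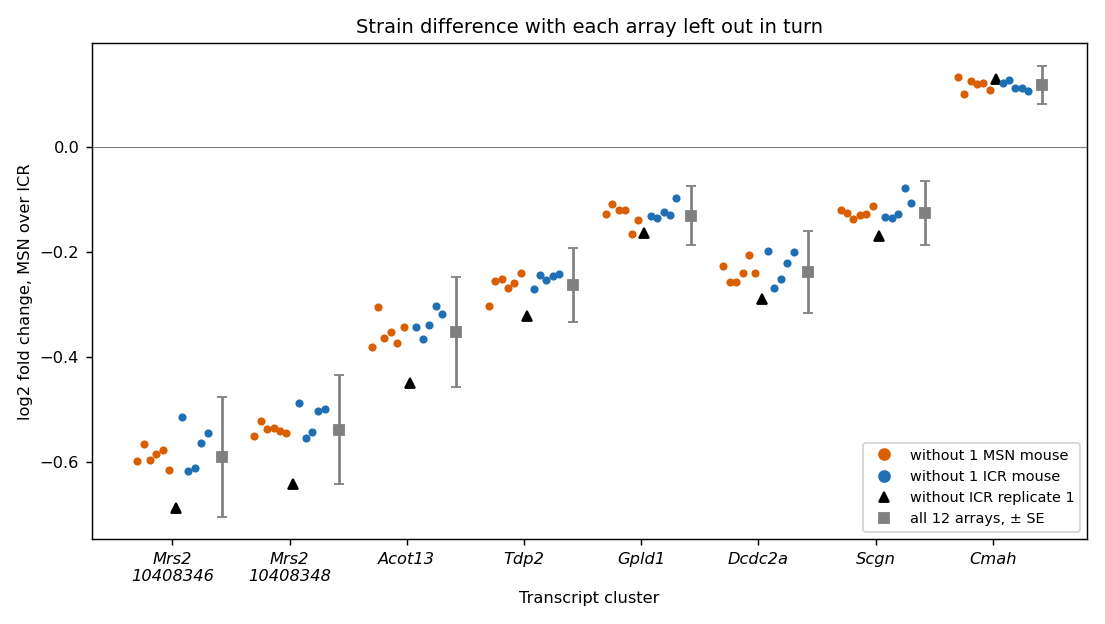
Log2 fold change, MSN over ICR, for each transcript cluster with each of the 12 arrays left out in turn, beside the value from all 12 arrays with its standard error (grey square). No omission changes a sign, and omitting ICR replicate 1 (black triangle) gives the value farthest from 0 for both Mrs2 clusters, at -0.69 and -0.64, and for Acot13, Tdp2, Dcdc2a and Scgn.

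The pattern is not shared by all genes of the stretch. The genes examined were picked from it knowing the strain contrast and the single ICR arrays. Its absence from the genes left over is therefore partly built in by that choice, and is given as a description. In RefSeq order the genes from Scgn onward are Scgn, Carmil1, Cmah, Ripor2, Gmnn, BC005537, Acot13, Tdp2, D130043K22Rik (Kiaa0319), Aldh5a1, Gpld1, Mrs2, Dcdc2a and Nrsn1. Aldh5a1, the succinate semialdehyde dehydrogenase of GABA breakdown, and D130043K22Rik stand between Tdp2 and Gpld1, and their log2 fold changes were -0.02 (SE 0.0383) and -0.02 (SE 0.0397). Gmnn (geminin), which blocks a second round of DNA replication, was at -0.02, Carmil1 at 0.06 and BC005537 at 0.05. Ripor2, a regulator of the GTPase RhoA, was named after its values were seen, because its ICR mice split as those of Dcdc2a and Cmah did. Its intensities were between 1198 and 1374 in MSN mice, against 1168, 1480, 983, 1409, 1524 and 1415 in ICR replicates 1 to 6. ICR replicates 1 and 3 were below the MSN range and the other 4 above it, which left its log2 fold change at -0.08.

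Among all 68 other non-histone genes of the stretch, most of them vomeronasal and olfactory receptors and zinc finger genes, 0 passed an adjusted p under 0.05 by limma and 4 had an unadjusted p under 0.05, all lower in MSN mice. The share at the unadjusted p, 5.88%, is below the 12.7% of all clusters, of which 0.777% passed the adjusted p. These 68 are what was left after the genes examined were chosen on the same contrast. Nothing is therefore read from the low counts. Their median log2 fold change was -0.03, with 47 of 68 below 0. In 0 of 68 was replicate 1 the sole ICR mouse inside the MSN range. Over all clusters with a gene that share was only 0.478%, so nothing is read from the 0. The vomeronasal and olfactory receptors among them were dim, with means below the array medians of 270 to 298 in both strains. The part of low intensity in these counts was not tested. Of the 68, the 6 with the smallest p were Vmn1r197, Vmn1r220, Pgbd1, Olfr1364, Vmn1r215 and Zkscan4. Vmn1r197, a vomeronasal receptor, had 23.2 ± 8.29 in MSN mice and 35.5 ± 5.64 in ICR mice (log2 fold change -0.41, SE 0.126, limma adjusted p = 0.168). The other 5 had log2 fold changes of -0.20 to -0.11 and limma adjusted p of 0.248 to 0.407. At the edge of the stretch, Nrsn1, the last gene inside it, had a log2 fold change of -0.09 (SE 0.0543) and Hdgfl1, the first beyond it, 0.03 (SE 0.0588).

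Among the histone genes on which the stretch is centered, H4c4 and H4c6 were lower in MSN mice and split the ICR mice as Mrs2 did. H4c4 had intensities of 1113 to 1310 in MSN mice, against 1137 in ICR replicate 1 and 4314, 4551, 4114, 6128 and 6337 in ICR replicates 2 to 6. Its log2 fold change was -1.68, and ICR replicate 1 was at the MSN level here as for Mrs2, Acot13 and Tdp2. H4c6 had 415 to 598 in MSN mice, against 511 in ICR replicate 1 and 840 to 924 in the other ICR mice. The same split was found for H4c14 on chromosome 3 (log2 fold change -0.55). It was also found in clusters that the annotation pairs with many H4 genes at once. Whether the probes of 1 H4 gene read RNA of another was not tested. Of 23 histone genes of the stretch 3 passed an adjusted p under 0.05 by limma, H2bc8 higher and H4c4 and H4c6 lower in MSN mice. At an unadjusted p under 0.05 there were 14, 10 of them higher in MSN mice and 4 lower. These shares were 13% and 60.9%, against 0.777% and 12.7% of all clusters with a gene. Most histone genes thus lay the other way from H4c4, with 7 of 23 below 0 and a median log2 fold change of 0.09, and their median absolute log2 fold change was 0.14. Clusters in which ICR replicate 1 alone was inside the MSN range numbered 7 in the stretch, the 4 above and those of H4c4, H4c6 and H1f3. The 4 were chosen knowing this. Over all clusters with a gene the share was 0.478%. Of the 99 such single-gene clusters with a place in RefSeq, 2 more lay elsewhere on chromosome 13. No other chromosome held more than 8. In H1f3 the other ICR mice lay below the MSN range, and in the rest of the 7 above it. Replicate 2 was the sole ICR mouse inside the MSN range for H2bc14, H2bc22, H2bc8, H2bc3 and H2bc1. The other ICR mice lay below that range in each of these.

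**Figure D3:**
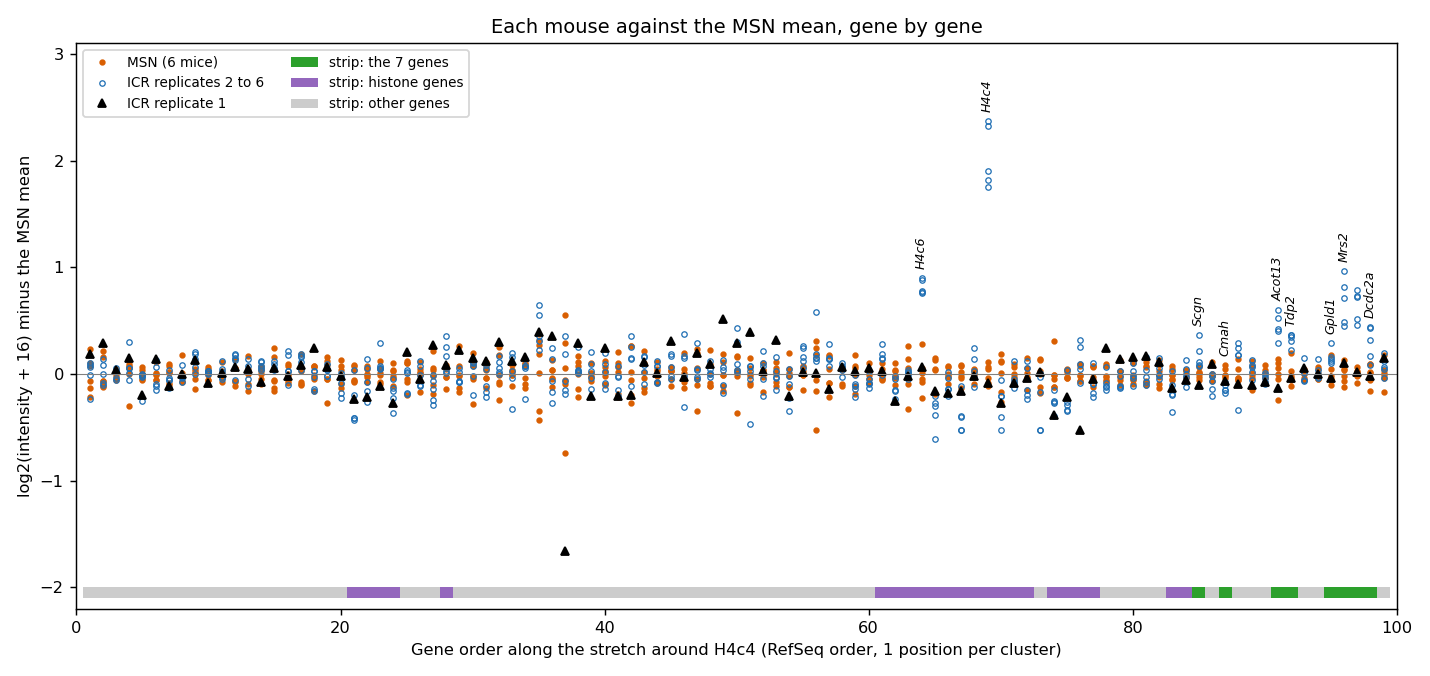
Log2(intensity + 16) of each mouse minus the MSN mean (y axis) for the 99 transcript clusters of the stretch in gene order (x axis, not to distance), with a strip that marks the 7 genes, the histone genes and the others. For H4c4, H4c6, Acot13, Tdp2 and Mrs2, ICR replicate 1 (black triangle) lies among the MSN mice (orange) while the other ICR mice (blue) lie above.

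Deviations from the strain means were compared between clusters over the 12 arrays, as a description, since the points share arrays and ICR replicate 1 weighs on many of them. The Mrs2 clusters correlated with each other at 0.950. Mrs2 cluster 10408348 correlated with Acot13 at 0.874, and at 0.825 without the 2 arrays farthest from the median for Mrs2 (ICR replicates 1 and 2) or 0.603 without the 2 farthest for Acot13 (ICR replicate 1 and MSN replicate 2). Dcdc2a correlated with Mrs2 cluster 10408346 at 0.836, and at 0.659 without the 2 farthest arrays. Mrs2 cluster 10408348 correlated with H4c4 at 0.885, the 5th highest of 21787 clusters of other genes, and at 0.705 without the 2 farthest arrays. Cmah and Acot13 ran opposite, at -0.778. Some other pairs, of which 3 are given here, had a correlation near 0 without the 2 arrays farthest for 1 gene of the pair, ICR replicate 1 among them. Without the 2 arrays farthest for Tdp2, its correlation with the Mrs2 clusters 10408346 and 10408348 was -0.135 and 0.143, against 0.468 and 0.664 over all arrays. Without the 2 farthest for Scgn, its correlation with Mrs2 cluster 10408348 was 0.157, against 0.716 over all arrays. The drop depends on the arrays left out. Without the 2 farthest for Mrs2 (ICR replicates 1 and 2), Scgn and cluster 10408348 correlated at 0.708. On those terms Tdp2 correlated with clusters 10408346 and 10408348 at 0.0687 and 0.351. By this measure the 3 genes most like each cluster all lay outside the stretch. They were Mlf2 (0.928), Fgfr1 (0.916) and Clptm1 (0.915) for Mrs2 cluster 10408346, and Mlf2 (0.945), Mapre3 (0.942) and Clptm1 (0.904) for cluster 10408348. For Acot13 they were Mapk10 (0.949), Hspbp1 (0.929) and Itga7 (0.902), and for Tdp2 Mt2 (0.943), Rnf103 (0.894) and Dhx36 (0.889). For Gpld1 they were Mfsd2a (0.894), Sec24c (0.885) and Itih2 (0.885), and for Dcdc2a Olfr615 (0.916), Slc30a2 (0.906) and Ncam1 (0.902). Scgn was closest to Hspbp1 (0.933), Bsdc1 (0.896) and Gatad2b (0.887), and Cmah to Dnase1 (0.958), Cdsn (0.952) and Cfi (0.946).

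Genes that work in the same pathways as the 7 were compared as lists, and 1 of 144 measured genes passed an adjusted p under 0.05 by limma, with 18 at an unadjusted p under 0.05, 9 higher and 9 lower in MSN mice. These shares, 0.694% and 12.5%, are close to the 0.777% and 12.7% of all clusters. The gene that passed was Pigz, a mannosyltransferase of GPI anchor assembly, which fell to 807 ± 68.9 in MSN mice, against 1158 ± 159 in ICR mice (log2 fold change -0.51, SE 0.0817, limma adjusted p = 0.0127). The 28 GPI anchor genes had a median log2 fold change of 0.00. Of 18 magnesium transporters 0 passed, with a median of -0.04, and Nipa1, a magnesium transporter, had the smallest p (log2 fold change 0.13, limma adjusted p = 0.130). Of 15 acyl-CoA thioesterases 0 passed, with a median of 0.06, and Acot7, the main brain form, had 0.15 (limma adjusted p = 0.0994). Of 21 genes of topoisomerase adduct and DNA end repair, which include topoisomerases of several types, 0 passed, with a median of -0.01, and Rad50, which tethers broken DNA ends, had -0.17 (limma adjusted p = 0.158). In the lists of doublecortin-domain genes, EF-hand calcium sensors and sialic acid enzymes 0 of 8, 0 of 23 and 0 of 31 passed. Their smallest p belonged to Dclk3 (0.07, limma adjusted p = 0.538), Kcnip4, a potassium channel partner (-0.15, limma adjusted p = 0.306), and the sialidase Neu4 (0.17, limma adjusted p = 0.117).

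Markers of cell types that a hippocampal dissection can hold were summed per array. The 7 astrocyte markers, all above the array median on all arrays, summed to 21453 to 23771 in MSN mice and 23802 to 26050 in ICR mice. Their sums did not overlap between the strains, by a narrow margin. By limma 0 of the 7 passed an adjusted p under 0.05, where 0.777% of all clusters did. At an unadjusted p under 0.05 there were 4, 3 lower and 1 higher in MSN mice (57.1%, against 12.7% of all clusters). The part of astrocyte markers in the strain differences was not tested. In ICR replicate 1 the astrocyte sum was 24627, inside the range of the ICR mice. The sums of principal neuron, interneuron, microglia, and endothelial and pericyte markers overlapped between the strains. By limma 1 of 12 principal neuron markers (8.33%) and 1 of 8 oligodendrocyte markers (12.5%) passed the adjusted p. At the unadjusted p there were 3 in each list (25% and 37.5%), all higher in MSN mice. In the remaining lists 0 passed the adjusted p. The 8 oligodendrocyte markers summed to 19290 to 22132 in MSN mice and 18476 to 20573 in ICR mice, and the 8 choroid plexus and ependyma markers to 9333 to 22238 in MSN mice and 7782 to 22175 in ICR mice. ICR replicate 1 had the lowest of all 12 sums for both lists, 18476 and 7782, and the part of this in its position among the MSN mice was not tested.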

How the data were processed

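Hippocampal RNA of 6 MSN and 6 ICR mice was hybridized to 12 Affymetrix Mouse Gene 1.0 ST arrays. The deposited intensity values were made by the authors with PLIER and GC-bin background correction in Affymetrix Power Tools 1.12.0, per the study's methods and the submitters' processing notes; they are linear, 1 per transcript cluster and array. The genome build was not given in the sources used here, and the RefSeq table of GRCm38.p6 served for names, gene order and promoters.

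To each intensity 16 was added before taking log2, and a model with strain as its term was run over the 23410 clusters paired with a gene, using lmFit and eBayes of limma 3.58.1 (R 4.3.3) and Benjamini-Hochberg adjustment. The number of arrays limits precision, and replicates are separate mice. The script was tested on simulated data. Members and gene lists were chosen with earlier results of these data known. The genes named are the 7, the 6 non-histone neighbors with the smallest p, the gene of each pathway list that passed or otherwise had the smallest p, and the 3 genes most correlated with each cluster. Others (Ripor2, the genes lying between the 7, the genes at the edge and the histones) were named after their values were seen or for their position. Alternatives were untransformed values, pseudocounts of 1 and 64, quantile and same-median scaling, clusters above the median only, all clusters, eBayes with trend and robust options, a block for replicate number, and the omission of each array in turn. Figures were drawn with matplotlib 3.10.9.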

Additional observations from a re-analysis of the deposited data

Results flagged for a closer look

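Values that stand apart were looked for in 32 clusters, those of the 7 genes and of the other genes whose strain difference is given by name, which make 64 groups of 6 mice. In these, 5 values stood apart from the other 5 mice of their strain. The measure was the gap to the nearest mouse divided by the range of the group, both on the log2 scale of the fold changes. It was set against Dixon's critical value, which chance passes in about 1 of 20 groups. The intensities given in brackets are linear, so the ratios cannot be worked out from them directly. Tdp2 in ICR replicate 1 (583, nearest ICR mouse 702) had a ratio of 0.658. H4c4 and H4c6 in ICR replicate 1 (1137 and 511, nearest ICR mice 4114 and 840) had ratios of 0.748 and 0.839. The 7 genes were chosen knowing which ICR mice matched MSN, and the values of H4c4 and H4c6 were known too. Ratios of ICR replicate 1 are therefore descriptions, with no test. Vmn1r215 in MSN replicate 6 (55.0, nearest MSN mouse 73.8) had a ratio of 0.640, and Kcnip4 in ICR replicate 3 (4544, nearest ICR mouse 3652) a ratio of 0.723.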

How the results depend on the processing

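All 8 clusters of the 7 genes kept the direction of their log2 fold change under the 21 alternatives, or the 20 that could be run for Dcdc2a, Scgn and Cmah, which are too dim for the fit of clusters above the median. Of these clusters 2 passed the adjusted p with all arrays, 0 with untransformed intensities, 0 with all clusters tested and 0 with the replicate number as a block (replicate block). With 1 array left out, 0 to 4 passed, with 0 without any 1 of MSN replicates 2 to 5 or ICR replicates 5 and 6, 1 without MSN replicate 1 or ICR replicate 4, and 4 without ICR replicate 1. The non-histone neighbors gave 0 under every alternative. Of the pathway genes 1 passed, 2 among clusters above the median, 2 with trend and robust options, 0 with the replicate block, and 1 to 2 with 1 array left out. ICR values inside the MSN range numbered 13, and 6 to 13 with 1 array left out, the lowest without ICR replicate 1. The ICR SD was above the MSN SD in 7 clusters, and in 4 to 8 with 1 array left out, a comparison chosen after seeing the data. Over all clusters 182 passed, 71 higher and 111 lower in MSN mice, against 240 after quantile normalization (131 and 109), 204 after same-median scaling (115 and 89), 279 with a pseudocount of 64, 273 with trend and robust options and 42 with the replicate block. Replicate numbers are not pairs in these mice, and same-numbered arrays correlated at -0.126 to 0.125 in their deviations from the strain means.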
